A study of Mus musculus with 28 samples.

Results

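The fatty acid desaturases and elongases described here are 9 mouse genes, the stearoyl-CoA desaturases Scd1 and Scd2, the polyunsaturated fatty acid desaturases Fads1 and Fads2, and the elongases Elovl1, Elovl2, Elovl3, Elovl5 and Elovl6. They were chosen by symbol from the probe sets that name exactly 1 gene, with the brightest standing for a gene that had several. Each of the 9 had 1 such probe set, so that 9 of the 18820 genes measured in this way are described, and none was lost to a filter on low values.

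Livers of 28 male C57BL/6J mice were profiled on whole-transcript arrays, with 1 array per animal. Every animal followed the intermittent diet (INT), in which 1 week of freely eaten moderate-fat food (MF, 25% of energy from fat) alternated with 1 week at 60% of the energy that control mice ate. In the switched group (n = 8) MF food was eaten every week up to the age of 12 months, INT followed, and sampling was at 24 months. In the lifelong groups INT began at 9 weeks of age, and 6 livers were taken at 6 months, 7 at 12 months and 7 at 24 months. Every mouse fasted for 4 hours, received carboxymethyl cellulose into the stomach, and fasted for 6 hours more. In the lifelong groups age and duration of the diet cannot be told apart, and the sources do not say in which week of the cycle a mouse was sampled. Mice on the control, calorie-restricted and uninterrupted MF diets were not analysed here.

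Desaturases place double bonds into fatty acids, and elongases carry out the first, rate-limiting step of the cycle that lengthens a fatty acid by a pair of carbons. In the liver, Scd1 and Elovl6 act on the saturated and monounsaturated fatty acids that the liver makes itself, whereas Fads1, Fads2, Elovl2 and Elovl5 turn the essential fatty acids of food into arachidonic and docosahexaenoic acid. Transcription of several of these genes is driven by the lipogenic factor SREBP-1c, is raised by feeding and insulin, and is held back by polyunsaturated fatty acids in food.

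Promoters in the RefSeq tables (build GRCm38.p6, 250 bases before a transcript start) were found for Elovl1, Elovl2, Elovl5, Elovl6 and Fads2 among the 9 genes, and for Tecr, the enoyl-CoA reductase that carries out the last step of the elongation cycle. The promoters of Elovl2 (chr13:41220404-41220653, minus strand), Tecr (chr8:83594492-83594741, minus strand) and Elovl5 (chr9:77917115-77917364, plus strand) are printed 5′ to 3′, because Elovl2 and Tecr were higher at 24 than at 6 months and Elovl5 differed among the 4 groups. Capitals mark every match on either strand to the GC box GGGCGG, the CCAAT box CCAAT (read as ATTGG on the other strand) and the E-box CACGTG, and no match overlapped another.
Elovl2: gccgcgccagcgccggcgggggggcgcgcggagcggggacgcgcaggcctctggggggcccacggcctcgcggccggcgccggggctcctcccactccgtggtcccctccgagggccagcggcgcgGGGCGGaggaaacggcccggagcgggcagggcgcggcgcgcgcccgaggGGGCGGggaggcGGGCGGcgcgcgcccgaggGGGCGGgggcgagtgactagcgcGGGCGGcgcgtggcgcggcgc
Tecr: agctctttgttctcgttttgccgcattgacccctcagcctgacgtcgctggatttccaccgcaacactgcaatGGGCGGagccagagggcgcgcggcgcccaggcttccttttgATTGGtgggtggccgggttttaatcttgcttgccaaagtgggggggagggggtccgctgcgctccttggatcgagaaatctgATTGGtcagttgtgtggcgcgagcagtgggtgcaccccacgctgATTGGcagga
Elovl5: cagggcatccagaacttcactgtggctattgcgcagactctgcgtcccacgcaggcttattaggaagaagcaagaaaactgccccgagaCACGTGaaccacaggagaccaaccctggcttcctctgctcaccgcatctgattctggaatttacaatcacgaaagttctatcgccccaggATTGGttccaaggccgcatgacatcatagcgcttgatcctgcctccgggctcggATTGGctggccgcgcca
The Elovl2 promoter held 5 GC boxes and neither of the other motifs. A second RefSeq start of Elovl2 had a promoter with 0 matches. Elovl1 had 5 GC boxes and 1 CCAAT box at 1 start and 2 GC boxes at the other. Tecr had 3 CCAAT boxes and 1 GC box, Elovl5 had 2 CCAAT boxes and 1 E-box, Fads2 had 1 GC box and Elovl6 had 0 matches. Of 32851 mouse promoters of the same length, 32.7% held a GC box, 33.8% a CCAAT box and 6.02% an E-box. The core of the sterol regulatory element, TCACNCCAC, was present in 1.05% of all promoters. It was present in 0 of those of Elovl1, Elovl2, Elovl5, Elovl6 and Fads2. No promoter was found for Scd1, Scd2, Fads1 or Elovl3, so that these genes were not searched.

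Expression is given in log2 units as the authors deposited them. Array medians lay between 5.23 and 5.31, and any 2 arrays correlated over probe sets, which are not independent replicates, with r of 0.978 to 0.992. Differences are first group minus second, come from 1 limma fit of all 28 arrays with group and the prefix of the array name (G150, G151 or G152) as terms, and carry the moderated standard error (SE). Since the prefix is taken into account, a difference can depart slightly from that of the printed means. Adjusted p values were computed over all 35556 probe sets, and 0.05 was the threshold. The summed signal of 8 hepatocyte markers lay between 15.86 and 15.95 log2 units in switched mice, 15.95 and 16.03 in 6-month livers, 15.84 and 15.97 at 12 months and 15.84 and 15.98 in lifelong mice at 24 months, and 0 of the 8 passed in any comparison in limma, with 1, 3, 0 and 0 at an unadjusted p under 0.05 at 12 against 6, 24 against 6, 24 against 12 months and switched against lifelong. Probes of close relatives such as Scd1 to Scd4 can take up each other's transcripts, and this was not tested. In bulk liver, fewer cells of a type and less RNA per cell cannot be told apart.

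Expression of 5 of the 9 genes, Scd1, Fads1, Elovl2, Elovl3 and Elovl5, differed among the 4 groups. Elovl3 differed in the opposite sense to the other 4, being highest at 6 months and lowest in switched mice, whereas the means of Scd1, Fads1, Elovl2 and Elovl5 were lowest at 6 months. In limma's moderated F test over the 4 groups, adjusted p was 0.000258 for Elovl3, 0.0019 for Fads1, 0.00854 for Scd1, 0.0323 for Elovl2 and 0.0403 for Elovl5, and 8.07% of all probe sets passed the same test. Adjusted p was 0.0859 for Scd2, 0.153 for Elovl1, 0.262 for Fads2 and 0.421 for Elovl6. With each of the 28 livers left out in turn, Scd1, Fads1 and Elovl3 passed in 28 fits, Elovl2 in 23 and Elovl5 in 19. Elovl3 was the only one of the 5 to pass in the 18 livers of prefix G150 alone, where adjusted p was 0.259 for Scd1, 0.135 for Fads1, 0.238 for Elovl2 and 0.365 for Elovl5, and 0 of the 5 passed in the livers of G151 and G152 (lowest adjusted p = 0.308). Elovl5 did not pass with a replicate block (adjusted p = 0.0538). Elovl2 did not pass without 6-month replicate 1, 2, 3, 4 or 6 (highest adjusted p = 0.0838). Elovl5 did not pass without 6-month replicate 1, 3 or 6, 12-month replicate 6 or switched replicate 1, 2, 5, 6 or 8 (highest adjusted p = 0.129). Elovl1 passed without lifelong 24-month replicate 7 (adjusted p = 0.0494), and Scd2 without lifelong 24-month replicate 4 (adjusted p = 0.0499) or switched replicate 3 (adjusted p = 0.0443).

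**Figure D1:**
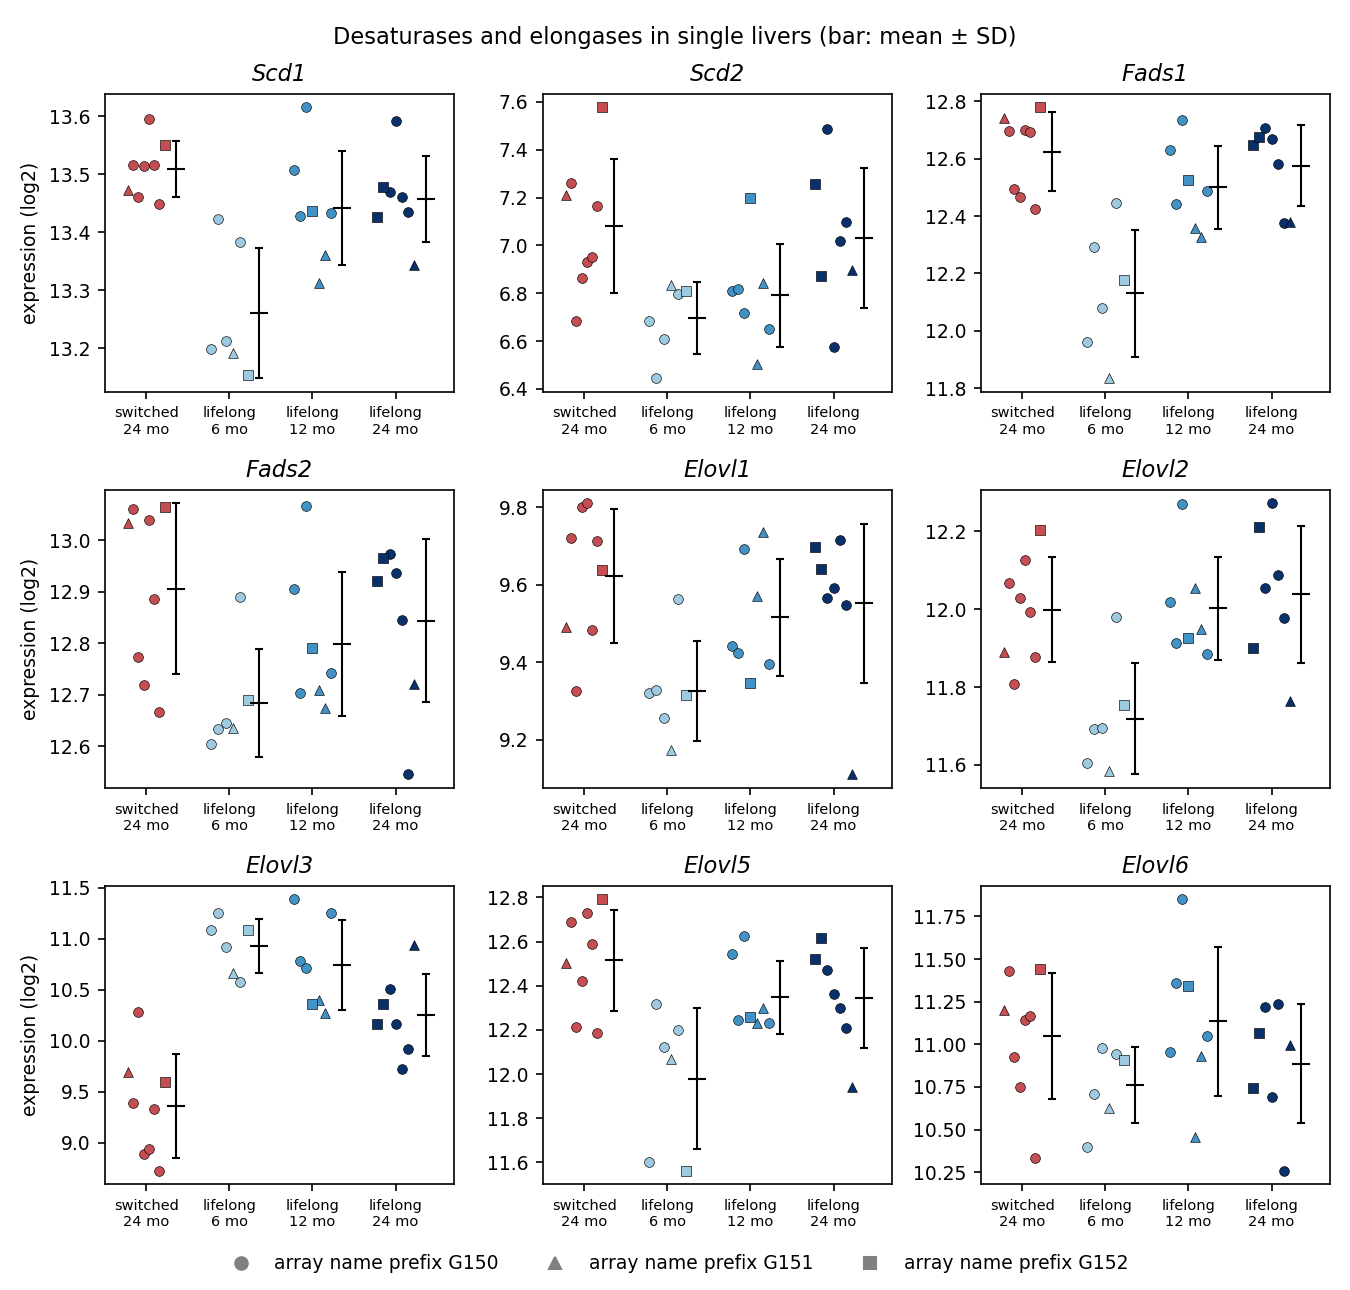
Expression of each of the 9 genes (y axis, log2 units, a scale of its own for each gene) in single livers of the 4 groups (x axis), with bars for mean ± SD and symbols for the array-name prefix. Elovl3 lies lowest in switched mice, at 8.73 to 10.29, and Fads1 lies lowest at 6 months, at 11.83 to 12.44.

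Scd1, the main stearoyl-CoA desaturase of adult mouse liver, makes oleic and palmitoleic acid. Its probe set (10467979) had lowest, median and highest values of 13.45, 13.51 and 13.60 in switched mice. In lifelong mice these values were 13.15, 13.21 and 13.42 in 6-month livers, 13.31, 13.43 and 13.62 at 12 months, and 13.34, 13.46 and 13.59 at 24 months. The 6-month livers lay low. The 12-month and lifelong 24-month groups each overlapped with them, and all 8 switched livers lay above the highest of them. Switched and 6-month livers were not compared in limma, and the share of all probe sets without overlap between them was not computed. Scd1 rose by 0.20 at 24 against 6 months (SE 0.049, 1.15-fold, limma adjusted p = 0.0184), with means of 13.46 ± 0.074 (SD, n = 7) and 13.26 ± 0.11 (SD, n = 6), and each of the 7 livers at 24 months was above the 6-month mean. Within prefixes G150, G151 and G152 the difference was 0.18, 0.15 and 0.30. It no longer passed without 6-month replicate 3 (adjusted p = 0.0555) or 6 (adjusted p = 0.0773). At 12 against 6 months the difference was nearly the same, 0.19 (SE 0.049, adjusted p = 0.0636), but did not pass, except without 6-month replicate 5 (0.21, adjusted p = 0.0418) and in 4 of 12 alternative fits. Scd1 lay near the top of the scale, whose highest value was 14.26, and whether its signal was compressed there was not tested. Its residual SD between livers was 0.073, against a median of 0.051 over the 95 probe sets with a mean of at least 13 and 0.171 over all probe sets.

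Scd2, a stearoyl-CoA desaturase better known from brain and from the liver of newborn mice, was read by probe set 10463355. Its lowest, median and highest values were 6.69, 7.06 and 7.58 in switched mice. They were 6.44, 6.74 and 6.84 in 6-month livers, 6.50, 6.81 and 7.20 at 12 months, and 6.58, 7.02 and 7.49 in lifelong mice at 24 months. The 6-month livers lay within a narrow, low range and both groups at 24 months spread above it and overlapped with it. The difference of 24 and 6 months was 0.30 (SE 0.12, 95% interval 0.045 to 0.56) and did not pass (limma adjusted p = 0.169), although 6 of 7 old livers lay above the highest 6-month liver. Other differences of Scd2 were 0.098 at 12 against 6 months and 0.20 at 24 against 12 months, with adjusted p of 0.806 and 0.55 in limma. Scd2 lies between Scd3 and Scd4 in GRCm38.p6, with Scd1 next to Scd4. Scd3 and Scd4 differed by -0.042 and -0.014 at 24 against 6 months, with adjusted p of 0.859 and 0.955 in limma.

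Fads1, which makes arachidonic and eicosapentaenoic acid from their direct precursors, had the smallest p of the 9 genes in both comparisons with 6 months. Probe set 10461439 gave lowest, median and highest values of 12.43, 12.69 and 12.78 in switched mice. The corresponding values were 11.83, 12.13 and 12.44 in 6-month livers, 12.33, 12.49 and 12.73 at 12 months, and 12.38, 12.65 and 12.71 at 24 months of the lifelong diet. The 6-month livers spread over a range that reached into the low end of the other 3 groups. Fads1 rose by 0.39 at 12 against 6 months (SE 0.084, 1.31-fold, limma adjusted p = 0.0361), with means of 12.50 ± 0.14 (SD, n = 7) and 12.13 ± 0.22 (SD, n = 6). It rose by 0.43 at 24 against 6 months (SE 0.084, 1.35-fold, limma adjusted p = 0.00416), with a mean of 12.58 ± 0.14 (SD, n = 7) at 24 months. All 7 livers at 12 months and all 7 at 24 months lay above the 6-month mean, and differences within the 3 prefixes were 0.38, 0.51 and 0.35 at 12 months and 0.39, 0.54 and 0.48 at 24 months. These comparisons share the 6-month livers. The 24-month call held in 13 of 13 fits that left out 1 liver, with adjusted p of 0.00121 to 0.0194. The 12-month call held in 5 of 13 and was lost without 6-month replicate 2, 3, 4 or 6 or 12-month replicate 3, 4, 5 or 6. The highest adjusted p of these fits was 0.137, and the difference stayed between 0.35 and 0.45.

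Fads2, the desaturase of the first step from linoleic and alpha-linolenic acid, lies next to Fads1 in the genome. Its probe set (10465895) gave lowest, median and highest values of 12.67, 12.96 and 13.06 in switched mice. The values were 12.60, 12.64 and 12.89 in 6-month livers, 12.67, 12.74 and 13.07 at 12 months, and 12.55, 12.92 and 12.97 in lifelong mice at 24 months. Of the 6-month livers 5 lay between 12.60 and 12.69, while the highest livers of each older group lay at 12.97 or above, and all groups overlapped. Differences from 6 months were smaller than for Fads1, 0.12 (SE 0.083, 95% interval -0.048 to 0.29) at 12 months and 0.15 (SE 0.083, 95% interval -0.021 to 0.32) at 24 months. Neither passed in limma (adjusted p = 0.574 at 12 months and 0.34 at 24 months), and whether Fads1 and Fads2 differed from each other in these changes was not tested. The neighbouring gene Fads3 differed by 0.14 at 24 against 6 months (limma adjusted p = 0.542).

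Elovl5, an elongase of polyunsaturated fatty acids of intermediate chain length, was read by probe set 10587284. Lowest, median and highest values were 12.19, 12.54 and 12.79 in switched mice. They were 11.56, 12.10 and 12.32 in 6-month livers, 12.23, 12.26 and 12.63 at 12 months, and 11.94, 12.36 and 12.62 at 24 months in lifelong mice. In the 6-month group replicates 1 and 6 lay lowest of all 28 livers, at 11.60 and 11.56, and the other 4 lay between 12.07 and 12.32. The difference from 6 months was 0.38 (SE 0.13, 95% interval 0.11 to 0.65) at 12 months and 0.36 (SE 0.13, 95% interval 0.092 to 0.63) at 24 months. Neither comparison passed in limma on its own (adjusted p = 0.174 at 12 months and 0.108 at 24 months). Within prefixes the 24-month difference was 0.27, -0.13 and 1.01.

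Elovl2, which makes the longer polyunsaturated precursors of docosahexaenoic acid, was read by probe set 10408838. Livers of switched mice had lowest, median and highest values of 11.81, 12.01 and 12.20. In lifelong mice the values were 11.58, 11.69 and 11.98 in 6-month livers, 11.88, 11.95 and 12.27 at 12 months, and 11.76, 12.06 and 12.27 at 24 months. Of the 6-month livers 5 lay below every liver at 12 months, and replicate 5, at 11.98, lay within the range of the older groups. Elovl2 rose by 0.31 at 24 against 6 months (SE 0.081, 1.24-fold, limma adjusted p = 0.0244), with means of 12.04 ± 0.18 (SD, n = 7) and 11.72 ± 0.14 (SD, n = 6), and all 7 old livers lay above the 6-month mean. Within prefixes it was 0.36, 0.18 and 0.30, and the call was lost without 6-month replicate 2, 3, 4 or 6 or 24-month replicate 4 (highest adjusted p = 0.0641). At 12 against 6 months Elovl2 differed by 0.30 (SE 0.081, adjusted p = 0.0864), which passed only without 6-month replicate 5 (0.35, adjusted p = 0.0371).

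Elovl6, which lengthens palmitic to stearic acid, was read by probe set 10495993. The lowest, median and highest values were 10.33, 11.15 and 11.44 in switched mice, 10.40, 10.81 and 10.98 in 6-month livers, 10.46, 11.05 and 11.85 at 12 months, and 10.26, 10.99 and 11.24 in lifelong mice at 24 months. The 4 groups overlapped over most of their range, and the spread between livers was wide, with a residual SD of 0.359. Elovl6 differed by 0.40 at 12 against 6 months (SE 0.19, 95% interval 0.0012 to 0.79, limma adjusted p = 0.38) and by 0.10 at 24 against 6 months (SE 0.19, 95% interval -0.29 to 0.50, limma adjusted p = 0.834).

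Elovl1, an elongase of saturated and monounsaturated very long chains that go into sphingolipids, was read by probe set 10507539. It had lowest, median and highest values of 9.33, 9.68 and 9.81 in switched mice, 9.18, 9.32 and 9.56 in 6-month livers, 9.35, 9.44 and 9.74 at 12 months, and 9.11, 9.59 and 9.71 in lifelong mice at 24 months. The medians of the older groups lay above that of the 6-month group, the groups overlapped, and lifelong 24-month replicate 7 was the lowest of all 28 livers. The difference of 24 and 6 months was 0.22 (SE 0.094, 95% interval 0.030 to 0.42, limma adjusted p = 0.178). Without replicate 7, whose array name carries an added suffix as that of 1 other array does, it was 0.30 and passed (adjusted p = 0.0373).

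Elovl3, an elongase of saturated and monounsaturated chains that is male-biased in mouse liver and is also known from brown fat and skin, had the widest range. Probe set 10463551 gave 9.70, 9.39, 10.29, 8.89, 8.94, 9.33, 8.73 and 9.60 in switched replicates 1 to 8. The 6-month replicates 1 to 6 had values of 11.09, 11.26, 10.92, 10.67, 10.58 and 11.09. At 12 months replicates 1 to 7 had 11.39, 10.79, 10.72, 10.36, 10.41, 10.27 and 11.25, and lifelong 24-month replicates 1 to 7 had 10.17, 10.36, 10.51, 10.16, 9.72, 9.92 and 10.94. All 8 switched livers lay below every 6-month liver, and for this pair of groups the share of all probe sets without overlap was not computed. Of the 8, 7 lay below the lowest lifelong liver at 24 months, with replicate 3 inside that group's range. Of the lifelong livers at 24 months 6 of 7 lay below the lowest 6-month liver, and replicate 7 lay just above the 6-month mean.

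Switched and lifelong mice at 24 months differed in Elovl3 by -0.89 (SE 0.22, 95% interval -1.35 to -0.44), 1.86-fold lower, with means of 9.36 ± 0.51 (SD, n = 8) and 10.25 ± 0.40 (SD, n = 7). The adjusted p in limma was 0.229, so that the difference did not pass, and the unadjusted limma p was 4.14e-04. Within the 3 prefixes it was -0.82, -1.24 and -0.66. It passed without switched replicate 3 (-1.02, adjusted p = 0.0498) and in none of the other 14 fits that left out 1 liver. At 24 against 6 months Elovl3 differed by -0.68 (SE 0.23, 95% interval -1.16 to -0.20, limma adjusted p = 0.0916), and by -0.88, 0.27 and -0.82 within prefixes. Without lifelong 24-month replicate 7, the only G151 liver of its group, this difference was -0.84 and passed (adjusted p = 0.0285). At 24 against 12 months it was -0.49 (95% interval -0.96 to -0.022, limma adjusted p = 0.422), and at 12 against 6 months -0.19 (95% interval -0.67 to 0.29, limma adjusted p = 0.796). The 4 groups therefore lay in the order switched, 24, 12 and 6 months from low to high, in which no neighbouring pair differed past the threshold.

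**Figure D2:**
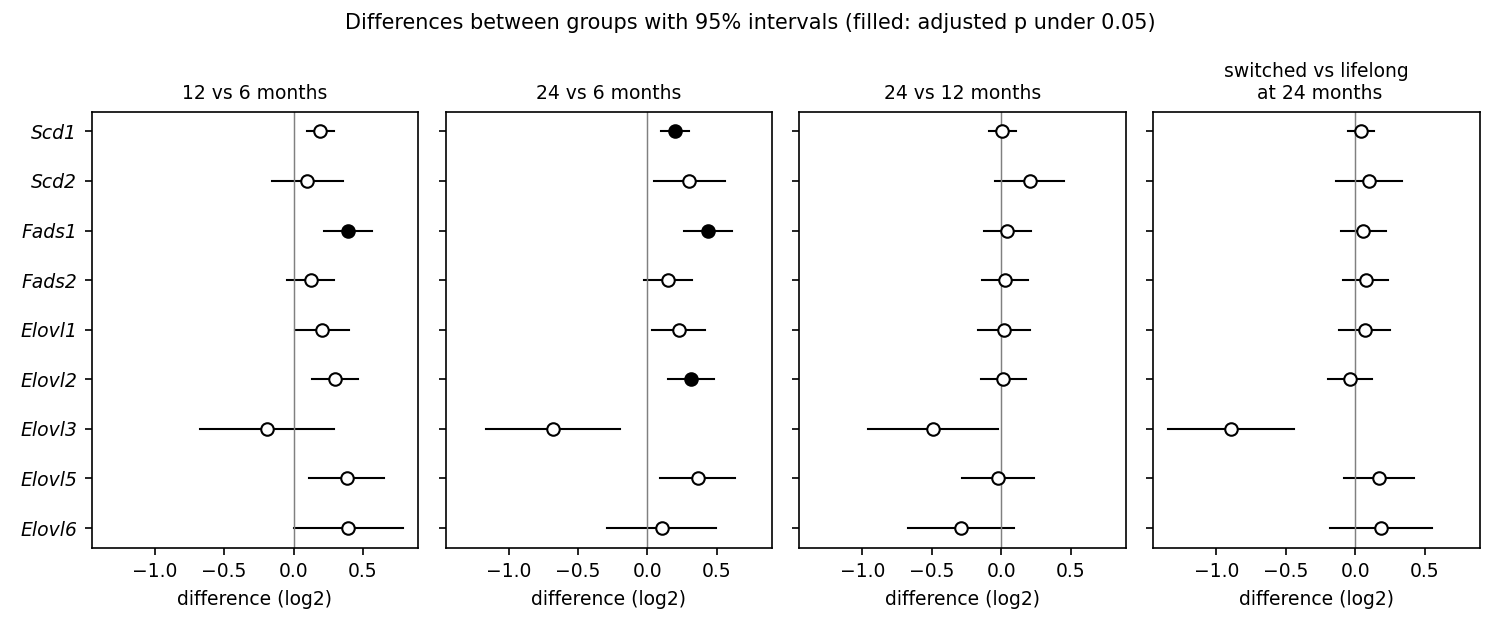
Difference of group means (x axis, log2 units) for each of the 9 genes (y axis) in the 4 comparisons, as points with 95% intervals from limma and filled points for an adjusted p under 0.05. Filled points are Fads1 at 12 against 6 months (0.39) and Scd1, Fads1 and Elovl2 at 24 against 6 months (0.20, 0.43 and 0.31), and Elovl3 lies furthest to the left in switched against lifelong mice (-0.89).

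The comparison of 12 with 6 months asks how the livers of middle-aged and young mice differed on the lifelong diet. Fads1 rose and the other 8 genes did not pass, where 0.591% of all probe sets passed in limma in either direction and 0.363% rose. The median difference of the 9 was 0.20, against 0.0012 for all probe sets. Of the 9, 8 were positive, as were 17935 of all 35556 probe sets. At an unadjusted limma p under 0.05, 6 of the 9 were higher and 0 lower, where 6.6% of all probe sets were higher and 6.45% lower. Several of the 9 varied together between livers, as described below, so that they are not 9 separate observations in this or the other comparisons. The groups overlapped for each of the 9, and 0.903% of all probe sets had groups that did not. Fads1 no longer passed without the prefix term (adjusted p = 0.0608), with a replicate block (0.0567), with the other 2 groups dropped from the fit (0.104), when both arrays with a suffixed name were left out (0.0577), in G150 alone (0.648) or in G151 and G152 (0.386), with differences of 0.37 to 0.43.

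At 24 against 6 months Scd1, Fads1 and Elovl2 rose and the other 6 genes did not pass. Of all probe sets 4.73% passed in either direction and 2.1% rose. The median of the 9 was 0.22, against -0.016 for all probe sets. Again 8 of 9 were positive, as were 16209 of all 35556 probe sets. At an unadjusted p under 0.05, 6 were higher and Elovl3 was lower, where 8.04% of all probe sets were higher and 11.2% lower. None of the 9 had groups without overlap, which 1.69% of probe sets had. In a fit of the 2 groups alone Fads1 passed, whereas Scd1 (adjusted p = 0.0959) and Elovl2 (adjusted p = 0.0713) did not, and in prefix G150 alone, as in G151 and G152, 0 of the 9 passed. The comparison uses the same 6-month livers as that of 12 months, so that the likeness of the 9 differences in both is not separate evidence.

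Between 24 and 12 months of the lifelong diet 0 of the 9 genes passed in limma, against 0.0253% of all probe sets, and 1 of the 9 (Elovl3, lower) had an unadjusted p under 0.05, where 4.76% of all probe sets were higher and 6.35% lower. The groups overlapped for each of the 9, and 0.276% of all probe sets had groups that did not. The 9 differences lay between -0.49 (Elovl3) and 0.20 (Scd2), with a median of 0.015. Intervals were narrow for Scd1 (-0.092 to 0.10) and wider for Fads1 (-0.12 to 0.21), Elovl2 (-0.15 to 0.18), Elovl5 (-0.28 to 0.24) and Elovl6 (-0.67 to 0.089).

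The comparison of switched and lifelong mice at 24 months asks whether a first year on MF food, in place of the intermittent diet, left a difference after a year of the intermittent diet. Switched mice had also spent less time on the intermittent diet, which cannot be told apart from the earlier MF food. Of the 9 genes 0 passed in limma, against 0.0197% of all probe sets, and 1 (Elovl3, lower) had an unadjusted p under 0.05, where 3.56% of all probe sets were higher and 4.02% lower. None of the 9 had groups without overlap, which 0.0366% of probe sets had. Leaving Elovl3 aside, differences ran from -0.038 (Elovl2, 95% interval -0.19 to 0.12) to 0.18 (Elovl6, 95% interval -0.18 to 0.55). For Scd1 the difference was 0.042 (95% interval -0.052 to 0.14), for Fads1 0.057 (95% interval -0.11 to 0.22) and for Elovl5 0.17 (95% interval -0.080 to 0.42). The lifelong livers of this comparison are also those of the comparisons with 6 and 12 months.

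Genes that work beside the 9 enzymes were read from lists. Of 8 related desaturases and elongases (Scd3, Scd4, Fads3, Fads6, Elovl4, Elovl7, Degs1 and Degs2), 0 passed in any of the 4 comparisons, with medians of 0.054, 0.063, -0.10 and -0.0039, and with 1, 2, 1 and 0 at an unadjusted limma p under 0.05, at 12 against 6, 24 against 6, 24 against 12 months and switched against lifelong. Fads6, an orphan member of the desaturase family, came nearest at 12 against 6 months (0.29, limma adjusted p = 0.0979). Of 9 genes for the later steps of the elongation cycle and for electron donors of desaturases, 1 rose and 8 did not pass at 12 and at 24 against 6 months. Medians of these 9 were -0.048 and -0.084, and 5 of the 9 differences were negative in both. At an unadjusted limma p under 0.05, 3 were higher in both, and 2 and 1 were lower. The gene that rose was Tecr, with lowest, median and highest values of 11.28, 11.44 and 11.79 in switched mice, 11.09, 11.16 and 11.30 in 6-month livers, 11.22, 11.50 and 11.62 at 12 months and 11.33, 11.49 and 11.52 in lifelong mice at 24 months. All 7 lifelong livers at 24 months lay above the highest 6-month liver, and 1.69% of all probe sets had no overlap of these groups. Tecr rose by 0.27 at 24 against 6 months (SE 0.068, limma adjusted p = 0.021) and by 0.29 at 12 against 6 months (SE 0.068, limma adjusted p = 0.0453). In the F test over the 4 groups 2 of these 9 passed, Tecr (limma adjusted p = 0.0143) and the outer mitochondrial cytochrome b5, Cyb5b (limma adjusted p = 0.0451), and 0 of the 8 related desaturases and elongases did.

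Among 8 genes of fatty acid synthesis, which supplies the substrate of Elovl6 and Scd1, 2 rose at 24 against 6 months and 0 at 12 against 6 months, with medians of 0.53 and 0.50 and 8 of 8 differences positive in both. At 12 months 5 of the 8 had an unadjusted limma p under 0.05. Acss2, which makes cytosolic acetyl-CoA from acetate, rose by 1.00 (SE 0.24, limma adjusted p = 0.0172), and the mitochondrial citrate carrier Slc25a1 by 0.33 (SE 0.086, limma adjusted p = 0.0249). At 12 months Acly, which makes acetyl-CoA from citrate, differed by 0.80 (SE 0.22, limma adjusted p = 0.0937). Of 11 measured genes of the SREBP, LXR, ChREBP and PPARA control of these enzymes, 0 passed in any pairwise comparison in limma, with 1, 4, 1 and 2 at an unadjusted p under 0.05 in the same order as above. Srebf2, the SREBP of sterol synthesis, differed by 0.29 at 24 against 6 months (limma adjusted p = 0.129), and Mlxipl, which encodes ChREBP, by -0.20 in switched against lifelong mice (limma adjusted p = 0.481). In the F test over the 4 groups 1 of the 11, Mlxipl, passed (limma adjusted p = 0.026), as did 2 of the 8 genes of fatty acid synthesis, Acss2 and Slc25a1 (limma adjusted p = 0.0351 and 0.0472).

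Peroxisomal chain shortening takes the last step to docosahexaenoic acid after Elovl2 and Fads2. Of 7 measured genes, Ehhadh, the peroxisomal bifunctional enzyme, fell by 1.16 at 12 against 6 months (SE 0.27, limma adjusted p = 0.0458), and 6 of the list did not pass. At 24 against 6 months 0 of 7 passed and 4 had an unadjusted limma p under 0.05, with Ehhadh at -0.79 (limma adjusted p = 0.0892) and the peroxisomal transporter Abcd2 at 0.92 (limma adjusted p = 0.0643). The F test over the 4 groups passed for 3 of the 7, Ehhadh (limma adjusted p = 0.0299), Abcd2 (limma adjusted p = 0.0281) and the peroxisomal transporter Abcd3 (limma adjusted p = 0.0457). Of 10 measured genes that activate fatty acids or place them into glycerolipids, 0 passed in the F test or in any comparison and 3, 2, 1 and 0 had an unadjusted limma p under 0.05, the arachidonate-preferring Acsl4 coming nearest at 24 against 6 months (-0.28, limma adjusted p = 0.0732).

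Elovl3 was also set beside other genes that differ between male and female mouse livers. Of 8 male-biased genes 4 fell and 4 did not pass at 24 against 6 months, with a median of -0.91, and all 8 differences were negative, as was that of Elovl3. In switched against lifelong mice 1 of 8 fell, with a median of -0.65 and again 8 of 8 negative. Cyp2d9, a male-biased steroid hydroxylase, had lowest, median and highest values of 10.42, 10.66 and 11.31 in switched mice, 11.63, 11.68 and 11.69 in 6-month livers, 11.45, 11.57 and 11.64 at 12 months, and 10.88, 11.27 and 11.41 in lifelong mice at 24 months. It fell by 0.54 in switched against lifelong mice (SE 0.092, limma adjusted p = 0.0341) and by 0.43 at 24 against 6 months (SE 0.099, limma adjusted p = 0.0122), and 7 of 8 switched livers lay below the lowest lifelong liver of the same age, as for Elovl3. The male-biased glucuronosyltransferase Ugt2b38 fell by 1.05 at 24 against 6 months (SE 0.12, limma adjusted p = 6.56e-05) and differed by -0.020 in switched against lifelong mice (limma adjusted p = 0.988).

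Of 6 measured female-biased genes 2 rose in switched against lifelong mice, with a median of 1.34. Cyp2b13, a cytochrome of female liver, rose by 3.26 (SE 0.37, limma adjusted p = 0.000118) and the hydroxyacid oxidase Hao2 by 1.80 (SE 0.27, limma adjusted p = 0.0094). At 24 against 6 months 2 of 6 rose, the steroid hydroxylase Cyp17a1 by 2.11 (limma adjusted p = 4.32e-05) and Cyp2b9 by 3.22 (limma adjusted p = 0.0129). The summed signal of the 8 male-biased genes lay between 12.92 and 13.75 log2 units in switched mice, 14.40 and 14.73 in 6-month livers, 14.03 and 14.41 at 12 months and 13.25 and 14.21 in lifelong mice at 24 months. That of the female-biased genes lay between 13.06 and 13.38 in switched mice, 9.52 and 11.29 in 6-month livers, 10.52 and 11.88 at 12 months and 12.11 and 13.15 in lifelong mice at 24 months. Across the groups the summed male-biased signal moved in the same direction as Elovl3 and the summed female-biased signal in the opposite direction. Single genes of the lists did not all follow. At 12 against 6 months 7 of the 8 male-biased differences were negative and 1 was positive. Of the 6 female-biased differences 3 were positive and 3 negative at 12 against 6 months, and 5 were positive and 1 negative at 24 against 6 months. The part of these genes in the differences of Elovl3 was not tested.

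**Figure D3:**
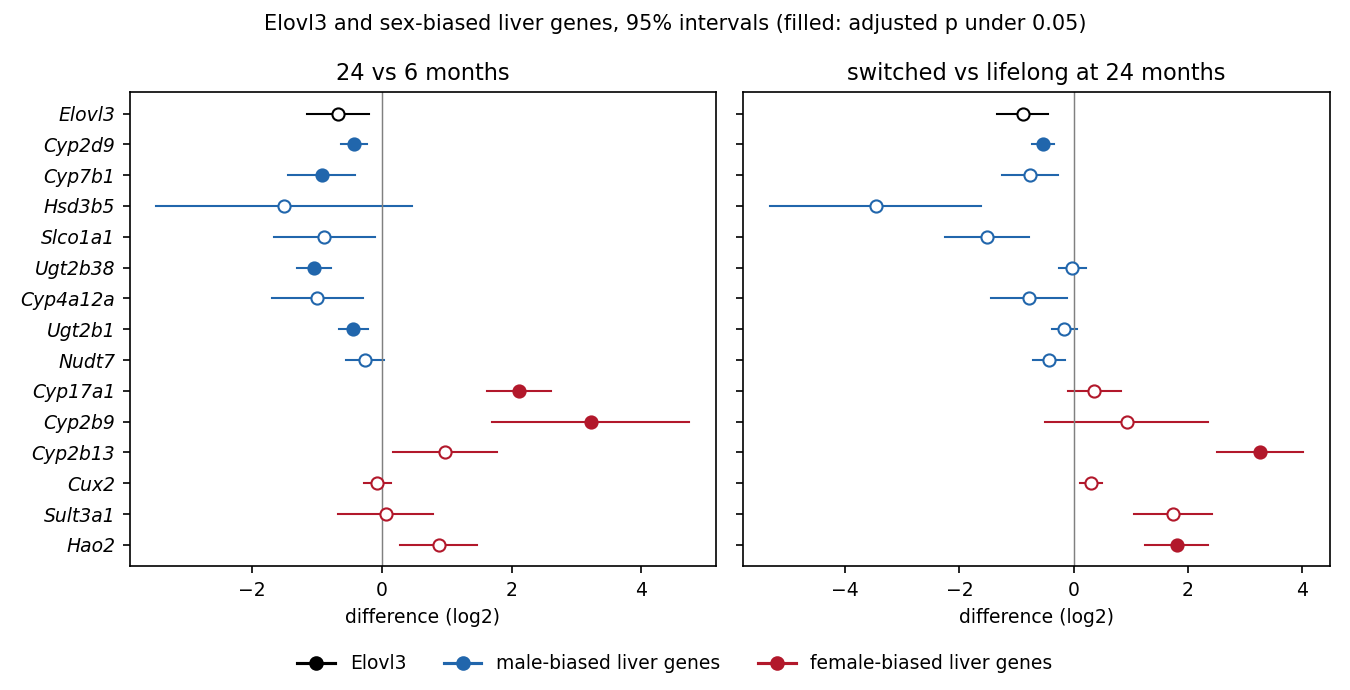
Difference (x axis, log2 units) with 95% interval from limma for Elovl3, 8 male-biased and 6 female-biased liver genes (y axis), at 24 against 6 months and in switched against lifelong mice, with filled points for an adjusted p under 0.05. Elovl3 and the 8 male-biased genes lie left of 0 in both panels, and the 6 female-biased genes lie right of 0 in switched against lifelong mice.

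Some markers of immune cells moved with age as well. Of 9 Kupffer cell and macrophage markers Lyz2 rose at 24 against 6 months (1.00, limma adjusted p = 0.0334), 8 did not pass, and 9 of 9 differences were positive. Their summed signal lay between 12.09 and 13.92 log2 units in switched mice, 12.01 and 12.49 in 6-month livers, 11.56 and 12.14 at 12 months and 11.92 and 13.36 in lifelong mice at 24 months. Of 4 B cell markers 3 rose at 24 against 6 months (Cd22, Ms4a1 and Cd79b), with summed signals of 7.46 to 8.78 in switched mice, 7.18 to 7.60 at 6 months, 6.69 to 7.65 at 12 months and 7.42 to 8.52 in lifelong mice at 24 months. Cd79b also rose at 24 against 12 months (1.25, limma adjusted p = 0.0439). In the F test over the 4 groups 1 of the 9 macrophage markers and 4 of the 4 B cell markers passed in limma, as did 2 of 6 stellate cell markers, Des (limma adjusted p = 0.0191) and Pdgfrb (limma adjusted p = 0.0111). Mean Pdgfrb was 7.55 in switched mice, 6.92 in 6-month livers, 7.10 at 12 months and 7.34 in lifelong mice at 24 months. Mean Des was 6.40, 6.03, 6.22 and 6.27 in the same groups. Both were lowest at 6 months, like mean Col1a1 and the means of Scd1, Fads1, Elovl2 and Elovl5. The other stellate cell markers were not. Mean Lrat was highest at 6 months, Col3a1 lowest at 12 months and Reln lowest in lifelong mice at 24 months. At 24 against 6 months 0 of the 6 stellate cell markers passed in limma, with 4 differences positive and 2 negative. The summed signal of the 6 stellate cell markers lay between 10.67 and 11.01 in switched mice, 10.57 and 10.77 in 6-month livers, 10.28 and 10.78 at 12 months and 10.39 and 10.90 in lifelong mice at 24 months. The arrays carry no detection call, so no marker can be said to be at 0. At 12 against 6 months 0 of the 9 macrophage, 0 of the 4 B cell and 0 of the 6 stellate cell markers passed. At an unadjusted limma p under 0.05 there were 0, 0 and 1 (higher). Negative differences were 8 of 9, 4 of 4 and 3 of 6. The part of these cells in the differences of Scd1, Fads1, Elovl2 and Elovl5 was not tested.

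Livers of the same group differed together in most of these genes. After the means of group and prefix were removed, 15 of the 36 pairs of the 9 genes were correlated over the 28 livers (permutation test of Pearson's r within groups, 100000 resamples, two-sided, adjusted over 36 pairs), 14 positively and 1 negatively. The share of other gene pairs that would pass the same test was not computed, so the count cannot be called particular to these genes. All 10 pairs among Scd1, Fads1, Fads2, Elovl2 and Elovl5 were among the 14. Elovl6 joined them through Fads1, Fads2 and Elovl5, and Elovl1 through Elovl2. For Elovl5 and Elovl6 r was 0.43 (permutation test, adjusted p = 0.0361). Their Spearman's rho of 0.415 did not pass (permutation test, adjusted p = 0.0639), and r was -0.017 in lifelong mice at 24 months. Scd2 was correlated with 0 of the other 8 genes, with r between -0.159 and 0.266.

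Fads1 and Fads2 were most closely tied. Pearson's r was 0.869 and Spearman's rho 0.877 over 28 livers (permutation p = 1e-05, the smallest that the test can give, adjusted p = 0.00036), r was 0.849 without the 2 livers furthest from the median of Fads1, and 0.886 in the 18 livers of prefix G150. Scd1 and Elovl5 had r of 0.751 and rho of 0.799 (permutation p = 6e-05, adjusted p = 0.00054), 0.709 without the 2 furthest livers and 0.765 in G150. For Scd1 and Fads1, r was 0.751 and rho 0.746 (permutation p = 5e-05, adjusted p = 0.00054), with 0.716 and 0.819 under the same checks. Fads2 and Elovl6 had r of 0.698 and rho of 0.617 (permutation p = 0.00014, adjusted p = 0.00072), with 0.568 and 0.763. Prefixes G151 and G152 held 5 livers each, too few for a value of their own. Points of a pair come from the same array, so that they share its hybridisation as well as its liver.

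The negative pair was Elovl1 and Elovl3, with r of -0.693 and rho of -0.627 over 28 livers (permutation p = 0.00021, adjusted p = 0.000945). Without the 2 livers furthest from the median of Elovl1, r was -0.618, and in prefix G150 it was -0.777. It was negative in each group, at -0.823 in switched mice, -0.514 at 6 months, -0.529 at 12 months and -0.792 in lifelong mice at 24 months. Lifelong 24-month replicate 7 combined the lowest Elovl1 value of all livers, 9.11, with the highest Elovl3 value of its group, 10.94. Switched replicate 3 combined the lowest Elovl1 value of its group, 9.33, with its highest Elovl3 value, 10.29. Elovl3 was correlated with none of the other 7 genes past the threshold, with r from -0.316 for Elovl2 to 0.23 for Elovl6.

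**Figure D4:**
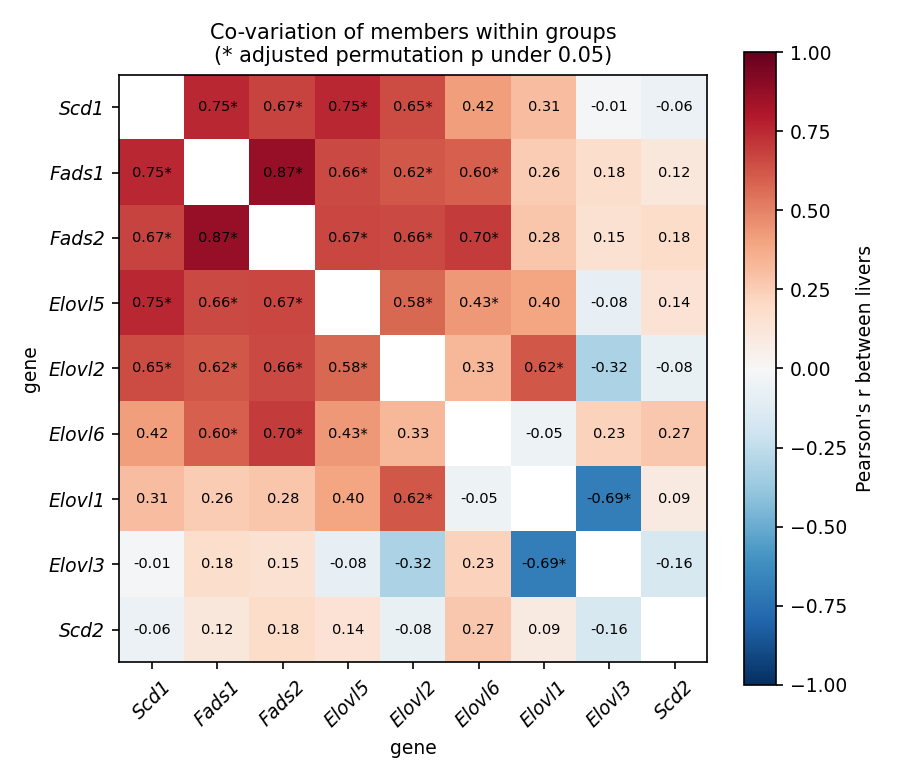
Pearson's r over 28 livers (colour and number) for each pair of the 9 genes after removal of group and prefix means, with an asterisk for an adjusted permutation p under 0.05. The 5 genes Scd1, Fads1, Fads2, Elovl5 and Elovl2 form a block of positive values from 0.58 to 0.87, and Elovl1 with Elovl3 stands out at -0.69.

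**Figure D5:**
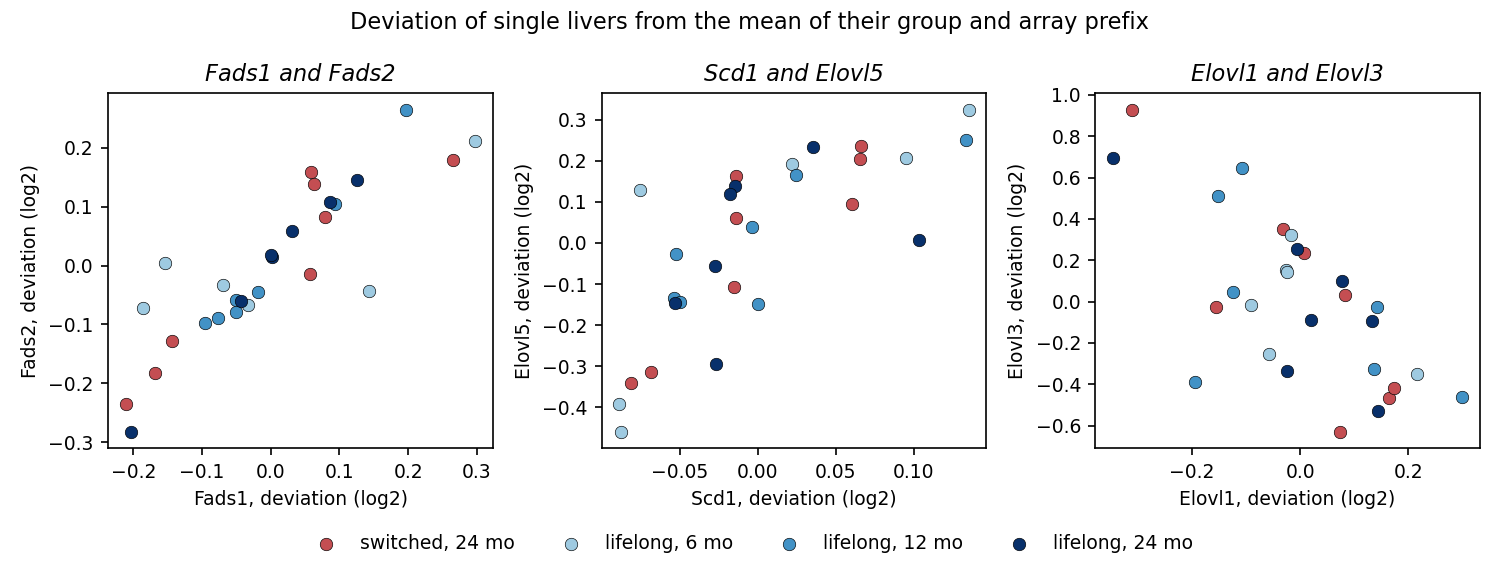
Deviation of single livers from the means of their group and prefix (both axes, log2 units) for Fads1 and Fads2, Scd1 and Elovl5, and Elovl1 and Elovl3, coloured by group. The livers lie along rising bands in the first and second panel (r of 0.869 and 0.751) and along a falling one in the third (r of -0.693). In the second panel r was 0.877 in switched mice, 0.798 at 6 months, 0.832 at 12 months and 0.384 in lifelong mice at 24 months.

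The 3 genes most like each of the 9 over the same 28 deviations, among 18819 others, are given by r as a description without a test. Scd1 was most like Pcyt2 (0.807), Elovl5 and Fads1 (0.751 for both), and Elovl2 most like Pcyt2 (0.803), Fdft1 (0.792) and Copz1 (0.783). Fads1 was most like Fads2 (0.869), Slc25a1 (0.843) and Dhcr7 (0.84), and Fads2 most like Tlcd1 (0.882), Fads1 (0.869) and Dhcr7 (0.866). For Elovl5 the closest were Gpam (0.875), Acsl5 (0.858) and Hsd17b12 (0.837), and for Elovl6 Acaca (0.885), Me1 (0.85) and Chrna4 (0.829). Elovl1 had Mta3 (0.808), Hus1 (0.801) and St6gal1 (0.773), Elovl3 had Mrpl30 (0.773), Sod2 (0.77) and Chchd2 (0.743), and Scd2 had Heg1 (0.763), Plcd1 (0.76) and Vasp (0.732). Of the 9 genes, Scd1, Fads1 and Fads2 thus had another of the 9 among their nearest 3, and Scd2, Elovl1, Elovl2, Elovl3, Elovl5 and Elovl6 did not.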

How the data were processed

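Liver RNA with an integrity number above 8 was labelled with biotin and hybridised to single-colour whole-transcript arrays, 1 for each of 28 mice. The deposited values, which were used unchanged, are log2 expression of 35556 probe sets, computed by the authors with RMA per the labels (version not given). Of these, 21218 name 1 gene, 1881 several and 12457 none. No filter or detection call was applied.

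One model in limma 3.58.1 (under R 4.3.3) took all arrays, with group and array-name prefix as fixed terms and empirical Bayes moderation. It gave 4 comparisons and an F test, two-sided, each with Benjamini-Hochberg adjustment across the 35556 probe sets. Pairs of genes were correlated on residuals, with 100000 permutations within groups (Python 3.11.15, numpy 2.4.6, scipy 1.17.1, pandas 2.3.3, matplotlib 3.10.9). Both steps were tested on simulated data.

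The genes, lists and tests were chosen with earlier results of these data known. Genes named are all 9, up to 4 passing genes of each list and otherwise the 2 with the smallest p (for some of which values are not printed), and the 3 most like each of the 9. Scd3, Scd4 and Fads3 at 24 against 6 months, Mlxipl, Cyb5b, Abcd2, Abcd3, Des and Pdgfrb in the F test and Ugt2b38 in switched mice were named after their values were seen. So were Lrat, Reln, Col1a1 and Col3a1. Counts over a list cover its measured genes, and some listed genes were not analysed here. A summed signal is the log2 of the sum of a list's linear values. T cell, endothelial, stellate cell, cholangiocyte and adipocyte markers had 0 genes passing in any pairwise comparison in limma, with 2, 3, 1 and 3 at an unadjusted p under 0.05 at 12 against 6, 24 against 6, 24 against 12 months and switched against lifelong. In the F test 2 stellate cell markers passed and 0 of the other 4 lists did.

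Replicates are different mice, and the number of arrays limits the precision. Alternatives concerned the livers (G150 alone, G151 with G152, only the groups compared, the 2 arrays with a suffixed name left out, each liver left out in turn), the model (no prefix term, array weights, a replicate block, trend with robust moderation), the values (median centring, quantile normalization repeated) and the probe sets (those naming 1 gene, or without the lowest 30 percent).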

Additional observations from a re-analysis of the deposited data

Results flagged for a closer look

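A liver was singled out when its gap to the nearest of its group, divided by the range of the group, was above Dixon's critical value. Of 36 groups (9 genes in 4 groups) 2 met this, and chance does so in about 1 in 20 groups. Fads2 of 6-month replicate 5 was the highest of its group at 12.89, the nearest other liver lying at 12.69 (gap over range 0.7, critical value 0.625). The same liver was also the highest 6-month liver in Fads1, Elovl1 and Elovl2. Elovl1 of lifelong 24-month replicate 7 was the lowest of its group at 9.11, the nearest other lying at 9.55 (gap over range 0.723, critical value 0.568). This liver was the only one of its group with prefix G151 and carries the added suffix, and its part in the value was not tested.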

How the results depend on the processing

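Counts of probe sets passing in limma were 210 at 12 against 6 months, 1681 at 24 against 6, 9 at 24 against 12, 7 in switched against lifelong mice and 2871 in the F test, of which 1, 3, 0, 0 and 5 were among the 9 genes. At 12 against 6 months the count of probe sets was 108 without the prefix term, 0 in G150 alone, 0 in G151 and G152 alone, 22 with only the groups compared, 518 with array weights, 46 without the arrays with the added suffix, and 332 over 1-gene probe sets. It was 122 with a replicate block, 250 with trend and robust moderation, 247 after repeated quantile normalization and 313 with the lowest 30 percent left out. At 24 against 6 months it was 194 in G150, 3 in G151 and G152, 736 with only the groups compared and 2271 without the suffix arrays. At 24 against 12 months it was 3 without prefix, 0 in G150, 0 in G151 and G152, 1 with only the groups compared, 33 with the lowest 30 percent left out, 6 after quantile normalization, 23 with array weights, 0 with the replicate block, 39 without the suffix arrays and 31 over 1-gene probe sets. In switched against lifelong mice it was 2 in G150, 1 in G151 and G152, 0 with only the groups compared, 10 with the lowest 30 percent left out, 2 with array weights, 2 with the block, 1 without the suffix arrays and 10 over 1-gene probe sets. In the F test it was 374 in G150, 4 in G151 and G152 and 1658 with the block.

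Of the 9 genes, 2 rose at 12 against 6 months with the lowest 30 percent left out, with trend and robust moderation, with array weights and over 1-gene probe sets, and 0 without prefix, in either subset of prefixes, with only the groups compared, with the block and without the suffix arrays. At 24 against 6 months 3 passed except with 1 for only the groups compared, 0 in either subset of prefixes and 5 without the suffix arrays, where Elovl1 and Elovl3 were added. With 1 liver left out, probe sets ranged from 7 to 546, 831 to 2370, 1 to 124 and 1 to 36 in the 4 comparisons and from 1744 to 3411 in the F test, and the 9 genes from 0 to 3, 1 to 5, 0 to 0 and 0 to 1. Pairs correlated between livers numbered 15, and 14 to 17 under other settings.

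The sign turned only for small or widely spread differences. In G150 alone it was 0.077 for Elovl3 at 12 against 6 months, -0.0068 for Scd1 and -0.029 for Fads2 at 24 against 12 months, and -0.068 for Scd2 and -0.0033 for Fads1 in switched against lifelong mice. In G151 and G152 at 24 against 12 months it was -0.11 for Elovl1, -0.072 for Elovl2, 0.18 for Elovl3 and 0.054 for Elovl5, and 0.12 for Elovl2 in switched against lifelong mice. At 24 against 12 months it was -0.0018 for Scd1 after median centring, and for Elovl5 0.0037 with array weights and 0.052 without the suffix arrays. With 1 liver left out, differences at 24 against 12 months ranged from -0.013 to 0.029 for Scd1, -0.030 to 0.11 for Elovl1, -0.024 to 0.058 for Elovl2 and -0.061 to 0.056 for Elovl5, and in switched against lifelong mice from -0.0069 to 0.11 for Elovl1 and -0.078 to 0.0042 for Elovl2. The subsets also held fewer livers, and the cause of these changes was not tested.

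Replicate numbers name different mice and do not pair the samples: deviations of same-numbered livers correlated with r of -0.11 to 0.15, over 0.1 in 1 of 26 pairs. With the replicate block the 9 genes gave 0 calls at 12 against 6 months and 3 at 24 against 6 months. The mean of several probe sets per gene gave no other value, since each gene has 1.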
